A study of Mus musculus with 238 samples.

Results

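The complement genes C1qa, C1qb, C1qc, C4b and C3 were followed in the brain and liver of aged mice under dietary restriction or young plasma. They were the 5 rows carrying these names among the 21076 gene rows of the count table, and all 5 were found. The libraries came from C57BL/6JN mice aged 19 months. In the diet experiment, 5 females under dietary restriction (aDR, written DR in the liver labels) were compared with 4 females fed ad libitum (AL). In the plasma experiment, 3 males given young mouse plasma (YMP) by retro-orbital injection were compared with 4 males given PBS. No group carried a transgene or deletion in the labels. Sex and experiment coincided, so they cannot be told apart. Each mouse gave bulk RNA from up to 15 brain regions, and each diet mouse also gave liver, which was sequenced as a check on the restriction.

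Complement is a cascade of plasma and tissue proteins that mark material for removal. In the classical pathway, the recognition molecule C1q, built from A, B and C chains encoded by C1qa, C1qb and C1qc, binds a target and activates the proteases C1r and C1s. These cleave C4 and C2, which together form the enzyme that cleaves C3, the step on which all complement pathways meet, and fragments of C3 then coat the target for receptors on phagocytes. In brain, microglia are the main source of C1q, C4b is made mainly by astrocytes and oligodendrocyte lineage cells, and C3 is known from reactive astrocytes and some microglia. Hepatocytes are the main source of the C3 and C4 of plasma.

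The 3 C1q genes are neighbours on chromosome 4, all on the minus strand (GRCm38, GENCODE M21 annotation). C1qb spans chr4:136880129-136886187, C1qc chr4:136889804-136893065 and C1qa chr4:136895917-136898803, with gaps of 3616 and 2851 bases between them. C4b (chr17:34728380-34743882) and C3 (chr17:57203970-57228136) lie on the minus strand of chromosome 17. C4b has a near-identical copy, C4a (chr17:34809092-34823464), and how reads shared by both were counted is not given in the sources used here, so C4b counts are uncertain to that extent. C4a itself was listed at a mean of 0.263 CPM (counts scaled per library, defined with the levels) in medulla to 1.05 CPM in hypothalamus. Promoter sequence was available here for 3 of the 5 genes (RefSeq, GRCm38.p6, minus strand) and is shown because C1qb and C1qc moved together over libraries and C3 did not follow them. Capitals mark an ETS core (GAGGAA, or TTCCTC where it lies on the other strand) or the C/EBP pattern (TTGCNNAA). These motifs were chosen after the sequences had been read, were searched on both strands, and do not overlap each other.
C1qb, chr4:136886201-136886450: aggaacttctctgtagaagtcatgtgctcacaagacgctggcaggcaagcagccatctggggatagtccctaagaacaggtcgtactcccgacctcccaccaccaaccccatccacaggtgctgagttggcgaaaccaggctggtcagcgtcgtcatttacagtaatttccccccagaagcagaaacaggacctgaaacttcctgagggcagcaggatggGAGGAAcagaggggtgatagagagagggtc
C1qc, chr4:136893066-136893164: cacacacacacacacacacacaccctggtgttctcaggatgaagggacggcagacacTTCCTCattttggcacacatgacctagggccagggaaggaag
C3, chr17:57228137-57228386: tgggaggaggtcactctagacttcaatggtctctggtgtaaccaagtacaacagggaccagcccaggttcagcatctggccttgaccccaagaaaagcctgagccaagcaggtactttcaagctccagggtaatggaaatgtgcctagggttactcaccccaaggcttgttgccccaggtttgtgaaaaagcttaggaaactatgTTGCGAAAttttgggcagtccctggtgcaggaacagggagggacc
Among 32851 mouse promoter windows of 250 bases, 23.3% held GAGGAA and 9.56% the C/EBP pattern in either orientation. The C1qc stretch is 99 bases long, so its match is not on the same footing as those windows.

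The 238 libraries (131 brain libraries and 9 liver libraries of the diet experiment, 98 brain libraries of the plasma experiment) held between 0.606 M and 32.4 M counts (M for mega). The median was 8.44 M, and 6 libraries held under 2 M. Most diet comparisons had 5 aDR and 4 AL mice and most plasma comparisons 3 YMP and 4 PBS mice. The smallest set was corpus callosum in the plasma experiment, with 2 YMP and 3 PBS libraries. The smallest count in any library was 29 for C1qa, 26 for C1qb, 33 for C1qc and 30 for C4b, whereas C3 had no count in 23 libraries. Liver libraries carried hepatocyte markers at 129630 to 191412 summed CPM. Choroid plexus libraries were mixed tissue: their plexus epithelium markers summed to 159 to 16224 CPM beside neuron markers at 3929 to 6762 CPM, with a YMP library at the low end. Libraries of PBS mouse 84 deviated together from their group means (mean r = 0.422 between its regions), and without that mouse the plasma difference of C4b given below was −0.35. Outside choroid plexus, 23 brain libraries carried more than 1000 CPM of plexus markers, 9 of them from the subventricular zone (SVZ) and 8 from corpus callosum. In bulk tissue, fewer cells of a type and less RNA per cell cannot be told apart.

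Levels are given as counts per M of library total after TMM scaling of all libraries (CPM), as mean ± SD over all mice of a region, treated and control together. The C1q genes were present everywhere within a narrow range. C1qa ran from 33.8 ± 3.77 CPM in visual cortex (n = 15) to 77.5 ± 24.9 CPM in medulla (n = 16). C1qb ran from 54.7 ± 7.01 CPM in olfactory bulb (n = 16), with visual cortex at 54.7 ± 4.61 CPM (n = 15), to 137 ± 49.3 CPM in caudate putamen (n = 16). C1qc ran from 43.4 ± 4.21 CPM in motor cortex (n = 16) to 100.4 ± 27.7 CPM in caudate putamen (n = 16). For all 3 subunits, caudate putamen, medulla, pons and corpus callosum held the 4 highest means. Motor and visual cortex were the 2 lowest for C1qa and C1qc, and for C1qb they stood level with olfactory bulb. The steps were small: of 14 pairs of neighbouring regions in the order of each subunit's mean log2 levels, none passed a two-sided permutation test of 100000 resamples after Benjamini-Hochberg adjustment over the 70 pairs of the 5 genes, with mouse left out of the test. The regions share mice, and with the mouse as a block 1 step passed, C1qb in thalamus above hypothalamus (0.24 on the log2 scale, higher in 12 of 14 mice, adjusted p = 0.0192, permutation test).

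C4b, whose product joins C2 in cleaving C3, varied far more between regions. It stood at 16.04 ± 4.03 CPM in visual cortex (n = 15) and 19.5 ± 9.56 CPM in motor cortex (n = 16), against 254.5 ± 81.2 CPM in SVZ (n = 16) and 262 ± 139 CPM in corpus callosum (n = 12). Caudate putamen (185 ± 103 CPM) and choroid plexus (147 ± 57.4 CPM) followed, and thalamus (43.8 ± 19.1 CPM) was the lowest region above the cortical pair. Only the step from thalamus down to motor cortex was larger than the spread between libraries, at 1.19 on the log2 scale (permutation test, adjusted p = 0.0007), and it did not pass in the control mice alone (permutation test, adjusted p = 0.0800). The other 13 neighbouring pairs of C4b, SVZ and corpus callosum included, did not pass.

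C3 was scarce in brain. It averaged 29.5 ± 9.75 CPM in SVZ (n = 16), 12.1 ± 6.69 CPM in corpus callosum (n = 12) and 11.9 ± 11.5 CPM in medulla (n = 16), and fell away to 0.436 ± 0.834 CPM in motor cortex and 0.191 ± 0.225 CPM in visual cortex. The 23 libraries without a C3 count came from 6 regions: 6 were motor cortex, 5 visual cortex, 5 caudate putamen, 3 entorhinal cortex, 3 olfactory bulb and 1 posterior hippocampus. A count of 0 allows up to 3 counts, which is counting error only and came to 0.169 CPM in the AL caudate library at 0 and 0.617 CPM in the aDR one. SVZ exceeded corpus callosum by 1.41 on the log2 scale (adjusted p = 0.0007) and cerebellum exceeded anterior hippocampus by 1.19 (adjusted p = 0.0182, permutation tests), and the other 12 steps did not pass. In the control mice alone neither of these passed (adjusted p = 0.152 and 0.0784, permutation tests).

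**Figure D1:**
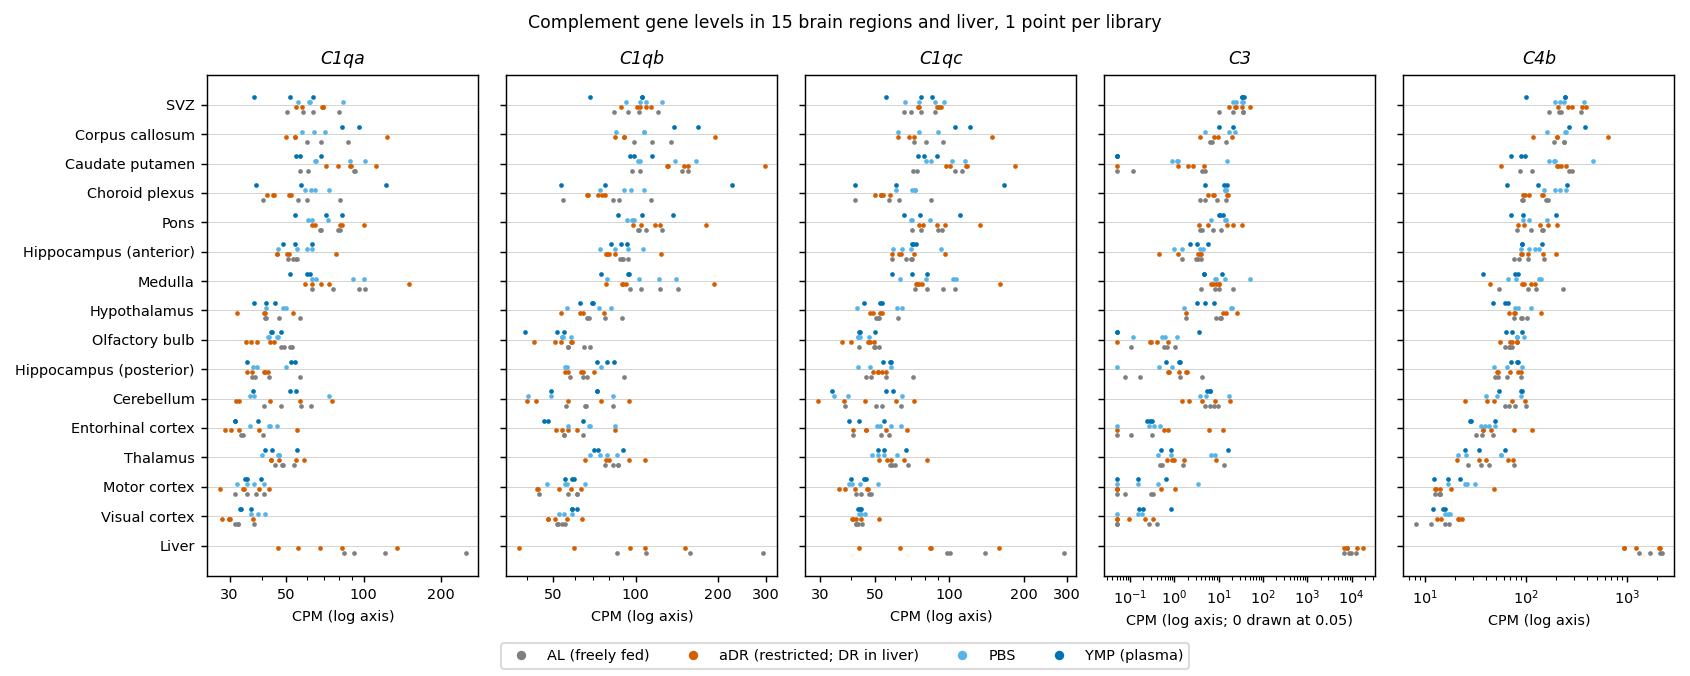
Level of each complement gene (CPM, log axis) in every library, by brain region and in liver, coloured by treatment group, with values of 0 drawn at 0.05. C1q stays within a narrow band over regions, C4b is lowest in the visual and motor cortex, and C3 has its highest brain mean in SVZ and is far higher in liver.

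In liver, C3 and C4b stood above the C1q genes. C3 averaged 10249 ± 3804 CPM (n = 9) and C4b 1631 ± 533.5 CPM (n = 9). On this scale C1qa (104 ± 62.1 CPM), C1qb (122 ± 74.7 CPM) and C1qc (118 ± 74.2 CPM) were near their levels in the richest brain regions. The TMM factors were 0.476 to 0.594 in liver and 0.837 to 1.13 in brain libraries. They raise every liver level against brain, so the nearness of C1q in liver and brain depends on this scaling. Levels of different genes can be compared only per length, here as CPM per kilobase of merged exons. On that scale, region means in brain ran from 50.2 to 126 for C1qb, from 32.5 to 74.5 for C1qa, from 22.5 to 52.0 for C1qc, from 2.82 to 45.9 for C4b and from 0.0371 to 5.73 for C3. In liver the same quantity was 1993 for C3, 286 for C4b and 112 for C1qb. The median ratio of C1qb to C1qc per length stayed between 2.08 in entorhinal cortex and 2.43 in thalamus and was 1.78 in liver. The ratio of C1qb to C1qa per length ranged more, from a median of 1.20 in olfactory bulb to 1.64 in thalamus, with 1.11 in liver. C4b per C1qb moved from a median of 0.0570 in visual cortex to 0.445 in SVZ and 2.98 in liver.

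The first comparison asked whether dietary restriction shifted these genes over the brain as a whole. Neither C1q, C4b nor C3 passed the test. The value of a mouse was the mean of its log2 levels over its regions, corrected for which regions it had, and it is given back on the CPM scale. C4b was 66.8, 75.2, 80.6 and 85.0 CPM in the AL mice and 89.7, 75.2, 80.4, 68.7 and 98.9 CPM in the aDR mice. The groups overlapped, with the highest value in aDR mouse 67. C3 was 1.82, 2.31, 3.19 and 3.43 CPM in AL mice and 3.37, 3.13, 2.49, 2.55 and 3.93 CPM in aDR mice, again overlapping. C1qa was 51.4, 52.5, 55.1 and 57.4 CPM in AL mice against 48.0, 51.5, 49.4, 46.7 and 62.0 CPM in aDR mice. Without mouse 67, the highest of all diet mice in C1qa, the aDR values would lie from 46.7 to 51.5 CPM and only just reach the AL range. C1qb likewise was 96.1 CPM in mouse 67 against 73.7 to 80.7 CPM in the other aDR mice and 78.6 to 86.5 CPM in AL mice.

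The differences (aDR minus AL, log2, with SE, limma on mouse values) were −0.077 (0.073) for C1qa, −0.049 (0.070) for C1qb, 0.013 (0.058) for C1qc, 0.097 (0.10) for C4b and 0.23 (0.19) for C3. Without mouse 67 the C4b value was 0.031 and the C3 value 0.14. The adjusted p-values ran from 0.607 for C3 to 0.943 for C1qc. No member was called, where 1.75% of 15616 genes were called at an adjusted p under 0.05 and 16.8% had an unadjusted p under 0.05. None of the 5 had groups without overlap, against 8.3% of genes, and 2 of 5 had a difference below 0, against 53.4%. The members' median was 0.013 and that of all genes tested was −0.0062.

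The second comparison asked the same of young plasma. All 5 genes had a lower mean in YMP mice, and none passed the test. C4b was 100.4, 86.9, 80.6 and 81.1 CPM in the PBS mice and 63.9, 81.4 and 66.7 CPM in the YMP mice. A pair of YMP mice lay below every PBS mouse, and YMP mouse 77 lay within the PBS range. C3 was 3.61, 4.09, 2.32 and 3.62 CPM in PBS mice and 2.07, 2.68 and 3.32 CPM in YMP mice, and C1qa was 59.6, 53.5, 53.3 and 51.8 CPM against 45.2, 57.6 and 50.5 CPM. Both genes overlapped between the groups.

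The difference for C4b (YMP minus PBS) was −0.31 (SE 0.0996) on the log2 scale, with an unadjusted p of 0.0138 and an adjusted p of 0.497 (limma). For C3 it was −0.34 (0.22), and for C1qa, C1qb and C1qc it was −0.098 (0.082), −0.024 (0.098) and −0.016 (0.084), with adjusted p-values between 0.701 and 0.965. Leaving out 1 mouse moved C3 between −0.52 (without PBS mouse 80) and −0.14 (without YMP mouse 73) and C1qa between −0.19 (without YMP mouse 77) and −0.012 (without YMP mouse 73), and turned the sign of C1qb and C1qc. No gene of the 15768 tested was called (0%), 8.35% had an unadjusted p under 0.05, and 51.8% had a difference below 0. None of the 5 was without overlap, against 10.1% of genes, and the members' median was −0.098 against −0.0037 for all genes. Gfap, the intermediate filament gene of astrocytes, was −0.36 (SE 0.084, adjusted p = 0.342, limma) and did not overlap between YMP and PBS mice. The 8 astrocyte markers as a list had a median of −0.052, with 7 of 8 below 0. The 10 choroid plexus markers were all below 0 in YMP mice, with a median of −1.29. The part of either list in the C4b value was not tested.

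**Figure D2:**
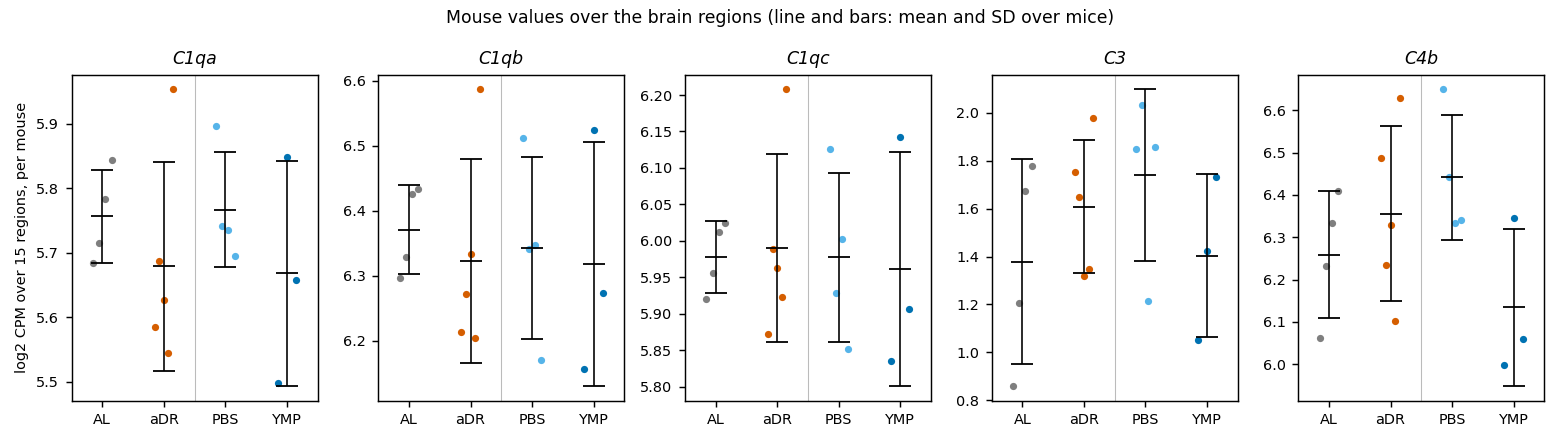
Level of each gene per mouse over all its brain regions (log2 CPM), by treatment group, with the group mean and SD. The 4 groups overlap for every gene, 2 of the 3 YMP mice are lowest for C4b, and aDR mouse 67 is highest of the diet mice in all 5 genes.

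Control groups of the experiments were also set against each other, as female AL mice and male PBS mice. The difference AL minus PBS was −0.18 for C4b (adjusted p = 0.609), −0.37 for C3 (adjusted p = 0.606, limma), −0.0061 for C1qa, 0.032 for C1qb and 0.0030 for C1qc, and no member was among the 0.106% of 16063 genes called. The diet effect minus the plasma effect was 0.40 (SE 0.16) for C4b, with an unadjusted p of 0.0209 and an adjusted p of 0.290 (limma), and 0.58 (SE 0.32, adjusted p = 0.484) for C3. No member was called there, against 0.205% of genes. The difference between the effects therefore did not pass for any of the 5 genes.

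Within single regions, no member was called in any brain comparison (edgeR quasi-likelihood test, Benjamini-Hochberg adjusted over the genes of that region). At an adjusted p under 0.05, 0.0525% of 205693 gene and region tests were called in the diet experiment and 0.0127% of 205500 in the plasma experiment. The members gave 70 such tests in the diet experiment, of which 2 had an unadjusted p under 0.05 on the lower side, against 3.23% of all tests, and 2 on the higher side, against 3.01%. In the plasma experiment the members gave 71 tests, of which 10 had an unadjusted p under 0.05 on the lower side, against 3.46% of all tests, and 4 on the higher side, against 2.65%. These tests share libraries and the C1q genes move together, so the 10 are not separate events. Of the 10, 5 were C4b, 3 were C1qa and 2 were C3. The C3 test in caudate putamen was among them, and it passed the filter only through its PBS libraries.

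**Figure D3:**
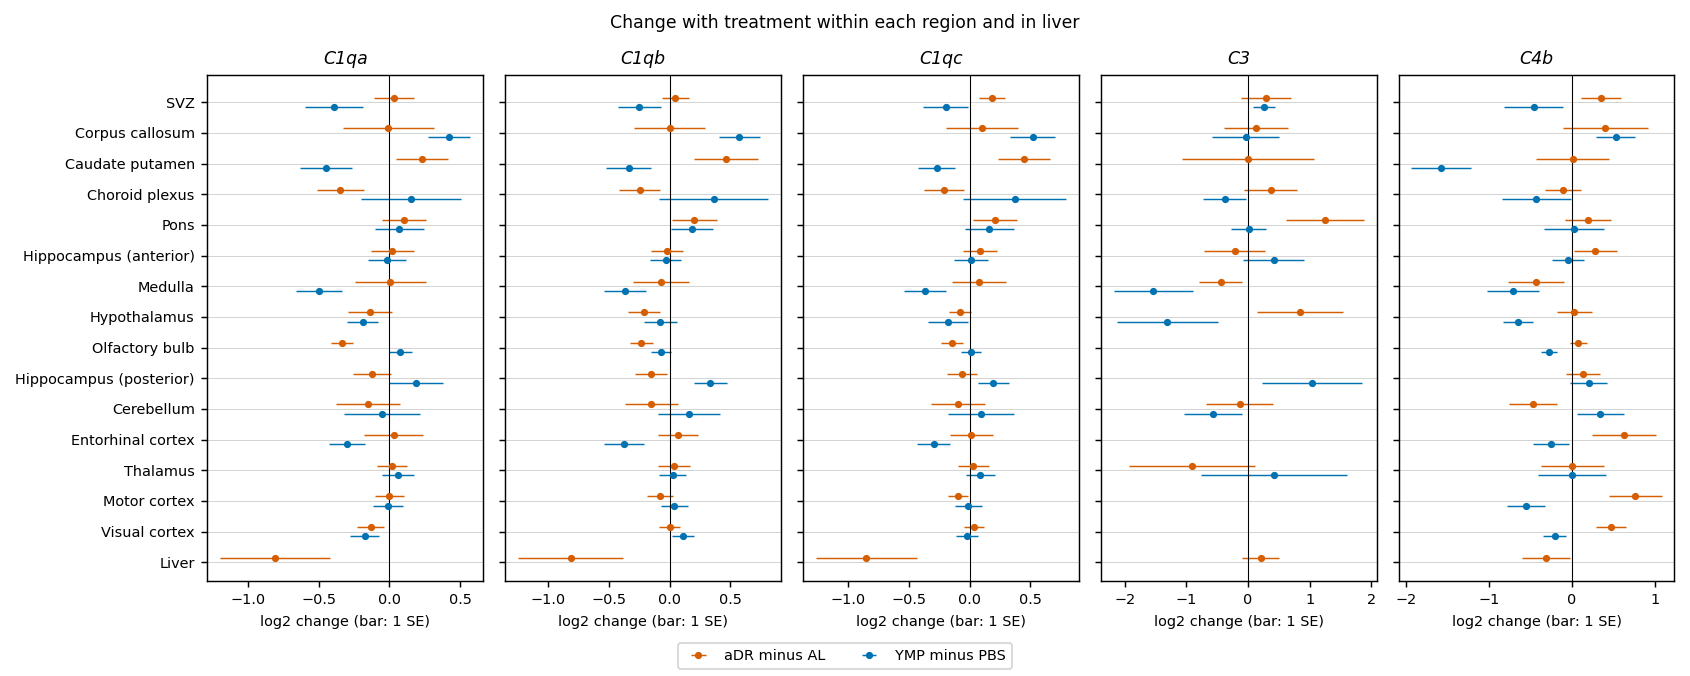
Difference between treated and control mice (log2, with SE) for each gene, 1 panel a gene, in each region and in liver, with diet and plasma in separate colours and regions where C3 was not tested left blank. C4b differences lie mostly above 0 under diet and mostly below 0 under plasma, and the plasma value of C3 in caudate putamen, where all 3 YMP libraries were at 0, is left out.

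For C1q under diet, the difference farthest below 0 by its error was in olfactory bulb. C1qa there was 52.6, 51.6, 47.7 and 48.7 CPM in AL mice and 38.3, 43.2, 34.8, 36.3 and 44.7 CPM in aDR mice. All aDR mice lay below all AL mice, a separation seen on the lower side for 1.98% of genes in this region and 1.46% of all diet tests (1.62% on the higher side). The difference was −0.34 (SE 0.077, unadjusted p = 0.000763, adjusted p = 0.121, edgeR). With DESeq2 the adjusted p was 0.0264. C1qb (−0.23) and C1qc (−0.15) had smaller differences there, with overlapping groups. Microglia markers in that region summed to 425 to 482 CPM in aDR mice and 455 to 502.5 CPM in AL mice. Their part in the C1qa value was not tested.

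By size, the highest C1q differences under diet were in caudate putamen, at 0.23 (SE 0.18) for C1qa, 0.46 (0.26) for C1qb and 0.45 (0.22) for C1qc. They leaned on 1 library: aDR mouse 64 had 298 CPM of C1qb, where the other aDR mice had 130.8 to 155.5 CPM and the AL mice 97.3 to 156 CPM. Without it the C1qb difference was 0.18 and the C1qc difference 0.27, while C1qa was lowest, at 0.11, without AL mouse 68. That library also had the lowest C4b of the 16 caudate libraries, 56.8 CPM, and no C3 count, and it deviated from its group by −0.37 in Ctss, a microglial gene, against 0.86 in C1qb (log2). The lowest C1q differences were in choroid plexus, at −0.35 (0.17), −0.25 (0.17) and −0.21 (0.16), with overlapping groups. They leaned on AL mouse 68, without which they were −0.15, −0.061 and −0.0045. Adjusted p-values in both regions were 0.618 or more (edgeR).

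C4b under diet was above 0 in 12 of 15 regions. Its largest difference was 0.76 (SE 0.32, adjusted p = 0.414, edgeR) in motor cortex. There the AL mice had 12.7, 14.2, 13.7 and 14.1 CPM and the aDR mice 14.2, 12.8, 12.6, 18.0 and 48.1 CPM. A single aDR mouse, 67, set it, and without that library it was 0.070. In visual cortex the difference was 0.47 (SE 0.18, unadjusted p = 0.0190, adjusted p = 0.415), from 17.4, 15.7, 8.12 and 11.6 CPM in AL mice and 21.8, 13.3, 23.4, 14.5 and 21.2 CPM in aDR mice, and the groups overlapped. The lowest was cerebellum, at −0.46 (SE 0.29, adjusted p = 0.499), or −0.73 without aDR mouse 62 and −0.28 without aDR mouse 64. Mouse 67 was also far out in corpus callosum, at 654 CPM of C4b against 117 to 202 CPM in the other aDR libraries.

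C3 passed the filter on low counts in 10 of 15 regions under diet, 5 above 0 and 5 below. Pons had the largest difference, 1.24 (SE 0.63, adjusted p = 0.997, edgeR), with 7.59, 3.79, 4.21 and 11.1 CPM in AL mice and 15.1, 20.8, 5.79, 3.57 and 33.2 CPM in aDR mice. The highest library, aDR mouse 67, stands apart in its make-up. It held the lowest oligodendrocyte marker sum of the diet pons libraries, 7318 CPM against at least 23808 CPM in AL mice, and without it the C3 difference was 0.77. Thalamus was lowest, at −0.91 (SE 1.0), and rested on AL mouse 68: without that library it was 1.34. At 0.480 to 13.2 CPM, C3 in thalamus differed more between mice of a group than between groups.

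Under plasma, C4b was below 0 in 10 of 15 regions, and its largest difference was in caudate putamen. PBS mice had 189, 457, 192.5 and 168 CPM there and YMP mice 97.4, 70.8 and 89.6 CPM. All YMP libraries lay below all PBS libraries, as for 5.9% of genes in this region and 4.42% of all plasma tests on the lower side (4.92% on the higher side). The difference was −1.57 (SE 0.36, unadjusted p = 0.00174, adjusted p = 0.474, edgeR). Without PBS mouse 76, the library at 457 CPM, it was −1.10 (SE 0.12, adjusted p = 0.0773), and with DESeq2 on all libraries the adjusted p was 0.0487. PBS mouse 76 carried 3757 CPM of choroid plexus markers, where the YMP caudate libraries had 16.7 to 29.9 CPM. Other markers moved with C4b in the caudate libraries. Gfap was 305 to 1364 CPM in PBS mice and 99.6 to 167 CPM in YMP mice, a difference of −2.49 (SE 0.50, adjusted p = 0.474, edgeR). Astrocyte markers summed to 3361 to 4670 CPM against 2872 to 3106 CPM, and oligodendrocyte markers to 16441 to 38959 CPM against 10617 to 16745 CPM. Microglia markers summed to 804 to 1114 CPM against 741 to 815 CPM. The part of these cell types in the C4b value was not tested.

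C1q and C3 moved the same way in caudate putamen. C1qa was −0.45 (SE 0.18, unadjusted p = 0.0379, adjusted p = 0.481, edgeR), C1qb −0.34 and C1qc −0.27, all with overlapping groups. For C3, PBS mice had 11, 94, 11 and 12 counts and the 3 YMP libraries had 0 counts. Taking 3 counts over the YMP libraries as the floor (0.122 CPM), the PBS mean was at least 38.9-fold higher, and at least 8.88-fold higher without PBS mouse 76. The edgeR test gave an unadjusted p of 0.0167 and an adjusted p of 0.474. C3 entered that test only through its counts in PBS mice, so the p-value is no separate evidence. Without PBS mouse 76 the gene did not pass the filter. In the diet experiment, an AL library and an aDR library of this region were also at 0, and the other 7 had 0.119 to 4.83 CPM.

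In hypothalamus C4b was 78.2, 113 and 83.1 CPM in PBS mice and 47.5, 61.7 and 66.9 CPM in YMP mice, without overlap, as for 4.32% of genes there on that side. The difference was −0.65 (SE 0.18, unadjusted p = 0.00779, adjusted p = 0.994, edgeR), beside a Gfap difference of −0.76 (unadjusted p = 0.0384). In medulla all 3 of C1qa (−0.50, SE 0.16), C4b (−0.70, SE 0.31) and C3 (−1.54, SE 0.64) had an unadjusted p under 0.05, with adjusted p-values of 0.452 to 0.532. C1qa was 99.9, 62.8, 65.3 and 90.7 CPM in PBS mice and 61.5, 51.4 and 59.9 CPM in YMP mice, just clear of each other, as for 4.26% of genes there on the lower side. C4b (136, 79.3, 66.0 and 140 CPM against 83.1, 37.3 and 77.8 CPM) and C3 overlapped there, C3 with 52.1 CPM in a single PBS library. Medulla microglia markers were 599 to 835 CPM in PBS mice and 528 to 585 CPM in YMP mice, and their part was not tested. C4b in motor cortex (−0.55, SE 0.23) and olfactory bulb (−0.27, SE 0.094) completed the 5 regions below 0 at an unadjusted p under 0.05, both with overlapping groups.

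Corpus callosum went the other way, but YMP mouse 73 and PBS mouse 72 had no library there. Over the brain regions, mouse 73 was the lowest YMP mouse in C1qb (71.3 CPM) and C4b (63.9 CPM). Mouse 72 was the highest PBS mouse in both (91.3 and 100.4 CPM). The part of their absence in the direction was not tested. C1qb was 107, 107 and 84.5 CPM in PBS mice and 169 and 138 CPM in YMP mice, a difference of 0.57 (SE 0.17, unadjusted p = 0.0105, adjusted p = 0.337, edgeR). C1qa (0.42) and C1qc (0.52) also lay higher in both YMP libraries than in every PBS library. With 2 libraries against 3 such separation was common: 15% of the 13562 genes tested in this region lay wholly higher in YMP. C4b was 243, 247 and 161 CPM in PBS mice and 270 and 380 CPM in YMP mice, 0.53 (SE 0.24, adjusted p = 0.627), and without YMP mouse 81 the difference was 0.26. The libraries also differed in make-up. Plexus markers were 5237 to 18858 CPM in the PBS libraries and 9.98 to 22.0 CPM in the YMP libraries, and 8 of 10 plexus markers were called lower there. Of all genes tested in this region, 0.184% were called. Microglia markers were 739 to 816 CPM in PBS and 929 to 999 CPM in YMP, and oligodendrocyte markers 21875 to 24072 CPM and 32270 to 34039 CPM. The part of this make-up in the C1q and C4b values was not tested. The remaining positive differences at an unadjusted p under 0.05 and the extremes were C1qb in posterior hippocampus (0.34, SE 0.14) and, by size, C3 there (1.04, SE 0.81, or 0.57 without PBS mouse 80 and 1.86 without PBS mouse 76). The lowest C1qb difference was in entorhinal cortex (−0.37, SE 0.16, adjusted p = 0.910). C1qa there was −0.30 (SE 0.12, unadjusted p = 0.0417, edgeR), with overlapping groups. In visual cortex all YMP libraries lay below all PBS libraries for C1qa (−0.18) and above them for C1qb (0.11). Such separation was seen for 4.42% of all plasma tests on the lower side and 4.92% on the higher side.

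**Figure D4:**
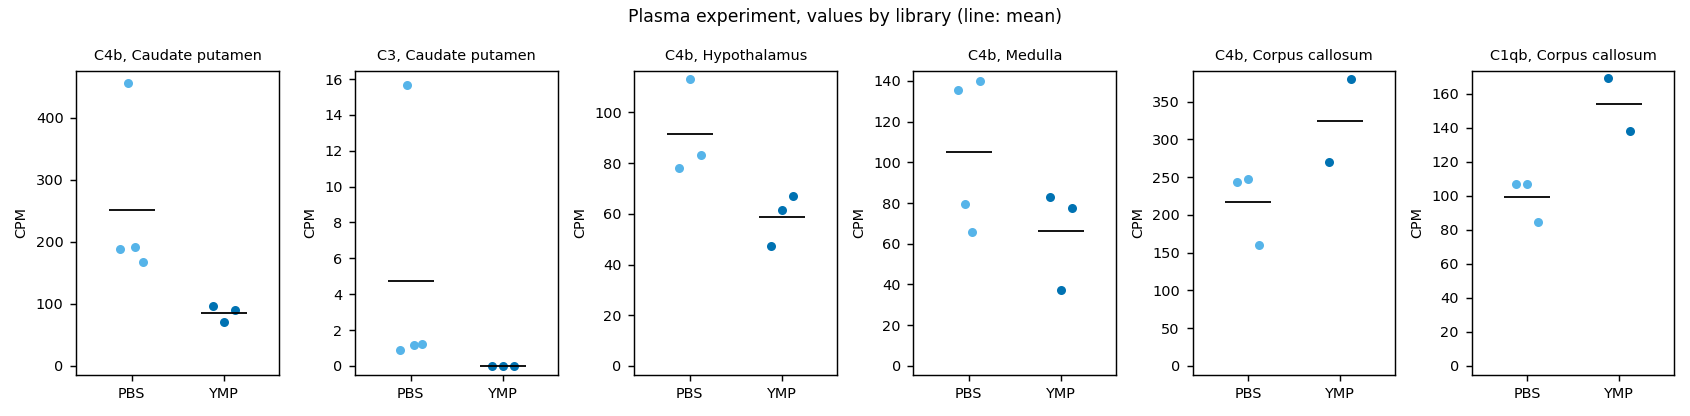
Level per library (CPM) in PBS and YMP mice for C4b and C3 in caudate putamen, C4b in hypothalamus and medulla, and C4b and C1qb in corpus callosum. YMP libraries lie below all PBS libraries for C4b in caudate putamen and hypothalamus, overlap them in medulla, and lie above them in corpus callosum.

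Whether the plasma difference itself varied between regions was tested with a region by treatment term (edgeR, F test over 15 regions). The fit had no mouse term, so libraries of 1 mouse counted as separate units. C4b had an unadjusted p of 0.0394 and an adjusted p of 0.592, C3 an adjusted p of 0.734, and the C1q genes 0.942 or more. Of 15768 genes, 0.824% were called in that test. Under diet the adjusted p was 1 for all 5 genes, and 0.0128% of genes were called. That test took all 15 regions at once, and the C4b differences in caudate putamen and corpus callosum were not tested against each other.

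In liver, where restriction was to be checked, C3 was 12559, 6856, 8886 and 9914 CPM in AL mice and 13391, 6749, 7915, 7769 and 18201 CPM in DR mice. The groups overlapped, and the difference was 0.20 (SE 0.30, adjusted p = 0.932, edgeR), or −0.062 without DR mouse 67. C4b was 2141, 1313, 1702 and 2223 CPM in AL mice and 2119, 938, 931, 1237 and 2075 CPM in DR mice. Its difference was −0.31 (SE 0.29, adjusted p = 0.856), and the groups overlapped. C1qa, C1qb and C1qc were at −0.81 (SE 0.39), −0.81 (0.43) and −0.85 (0.42), with adjusted p-values of 0.581 to 0.641. Those values leaned on AL mouse 68, at 251 CPM of C1qa against 84.2 to 121 CPM in the other AL mice, and became −0.32, −0.34 and −0.34 without it. Microglia markers, which the resident macrophages of liver partly share, summed to 190 to 385 CPM in DR mice and 267 to 640 CPM in AL mice, and their part was not tested. Of 11815 genes tested in liver, 0.22% were called and no member was among them.

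The diet difference in liver minus that in brain, taken per mouse, was −0.68 for C1qa, −0.75 for C1qb, −0.83 for C1qc, −0.47 for C4b and −0.10 for C3, with adjusted p-values of 0.679 to 0.985 (limma). All 5 were below 0, and none passed, where 0.0705% of 11350 genes were called.

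The other complement genes were taken by role from lists. Of 14 genes for classical and lectin recognition and proteases, 8 were tested across brain regions under diet, 4 above and 4 below 0, and 0 were called, with Colec11 farthest (0.26, adjusted p = 0.265, limma). Of 3 alternative pathway genes 2 were tested, both below 0, and 0 were called (Cfb, factor B, −0.098, adjusted p = 0.643). Of 7 terminal pathway genes 3 were tested and 0 called (C8g 0.18, adjusted p = 0.282). Among the receptors and regulators, 1 gene of each list fell. Of all 15616 genes in this test, 1.75% were called and 53.4% were below 0.

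Cd93, a receptor of endothelial and myeloid cells once proposed to bind C1q, was the receptor that fell (8 of 9 tested, 5 below 0). It was 3.68, 4.40, 3.73 and 4.28 CPM in AL mice and 3.02, 3.07, 2.68, 3.37 and 2.93 CPM in aDR mice. The groups did not overlap, as for 8.3% of genes tested. The difference was −0.42 (SE 0.084, adjusted p = 0.0375, limma). The call rested on the full set of mice: it was lost on leaving out any 1 of 8 mice, all but aDR mouse 65, with values of −0.46 to −0.37 and adjusted p-values of 0.0523 to 0.130. Endothelial and mural markers moved alongside: 6 of 8 were below 0, against 53.4% of all genes. Cldn5, a tight junction gene (−0.48, adjusted p = 0.0192), and Flt1, a VEGF receptor (−0.26, adjusted p = 0.0158), fell. Cldn5 lost its call without AL mouse 66, 68 or 69 or aDR mouse 62 or 65 (adjusted p = 0.0514 to 0.0726) and Flt1 without AL mouse 66, 68 or 69 (0.0523 to 0.0658). Their part in the Cd93 value was not tested. Csmd2, a neuronal membrane protein with complement control domains, was the regulator that fell (15 of 18 tested, 10 below 0). It was 22.0, 21.5, 21.9 and 19.1 CPM in AL mice and 16.5, 17.7, 19.2, 18.0 and 17.8 CPM in aDR mice. The groups touched, and the difference was −0.24 (SE 0.054, adjusted p = 0.049983, limma), at the edge of the threshold. It was lost without any 1 of 7 mice, all but aDR mouse 64 and AL mouse 69 (adjusted p = 0.0665 to 0.157), and without the pons library of aDR mouse 67.

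The microglia list gives the setting for C1q under diet. All 12 markers were below 0, with a median of −0.051, against 53.4% of all genes and a median of −0.0062. Of the 12, 2 fell, where 1.75% of all genes were called. Fcrls, a microglial Fc receptor-like gene, was 22.7 to 24.3 CPM in AL mice and 15.5 to 18.9 CPM in aDR mice (−0.44, adjusted p = 0.0071, limma). Cx3cr1, the fractalkine receptor, differed by −0.13 (adjusted p = 0.0458), a call lost without any 1 of 8 mice, all but aDR mouse 64 (adjusted p = 0.0579 to 0.130). Fcrls kept its call under all 20 alternatives. The C1q genes, at −0.077 to 0.013, did not pass.

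Under plasma, no gene of these lists was called across regions. The farthest were C1s1, a protease of the C1 complex (−0.49, adjusted p = 0.492), Cfp, properdin (0.23, adjusted p = 0.655), C8g (−0.21, adjusted p = 0.649), Serping1, the C1 inhibitor (−0.35, adjusted p = 0.553), and Itgax, a chain of complement receptor 4 (−0.44, adjusted p = 0.641, limma). C1s1 and Serping1 were without overlap, as were 10.1% of the 15768 genes tested. The microglia list was below 0 in 11 of 12, with a median of −0.097, against 51.8% of all genes and a median of −0.0037. In the test of variation between regions, Cd59a, which blocks the terminal complex, was called under plasma (adjusted p = 0.0222, edgeR). That call was lost without the corpus callosum libraries (adjusted p = 0.175) and without PBS mouse 72, 76 or 80 or YMP mouse 73 or 81 (0.102 to 0.919). Also called were the plexus genes Kcnj13, Kl and Aqp1 that marked the corpus callosum libraries. Within single regions no other complement gene was called.

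Likeness over the 15 brain regions was described by the correlation of region means, and likeness among libraries by the correlation of deviations from each region and group mean over all brain libraries of both experiments. These points share libraries, depth and mice, so no p-value is given. The C1q subunits went together most closely, at r = 0.993 over regions and 0.940 over deviations for C1qb with C1qc, and 0.943 and 0.915 for C1qa with C1qb. C3 and C4b correlated at 0.752 and 0.609. C1qb and C3 correlated at 0.617 over regions and 0.226 over deviations.

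Among 12623 other genes, the region means most like C1q (mean of the 3 genes) were Fcer1g (r = 0.986), Enpp4, Cd14, Taldo1 and Ly86 (0.971). By deviations they were Ctss (0.847), Fcer1g, Tyrobp, Trem2 and Cd68 (0.794), of which Ctss, Tyrobp and Trem2 are on the microglia list. For C4b the region means most alike were Tm7sf3 (0.931), Efnb3, Ccdc13, Tlr13 and Ech1 (0.902). By deviations they were Gfap (0.866), Csf1 (0.774), Pros1, Msn and Tm7sf3 (0.683). For C3 the region means most alike were Acadvl (0.934), Ggh, Dnajc3, Hacl1 and Capg (0.923), and by deviations Gfap (0.590), Ccdc3, Vim, Pbxip1 and Cd24a (0.555).

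Deviations of C4b and Gfap correlated above 0 in all 15 regions, from 0.578 in olfactory bulb to 0.956 in hypothalamus, with a median of 0.905, and at 0.860 in the diet and 0.878 in the plasma libraries. C3 and C4b ranged from −0.297 in olfactory bulb, where C3 is near 0, to 0.913 in caudate putamen, and were above 0 in 14 of 15 regions. C1qb and Ctss, the gene of cathepsin S, ranged from 0.159 in visual cortex to 0.980 in corpus callosum. Marker lists were taken here as the mean log2 level of their genes. The highest for C1q over regions was oligodendrocyte markers (0.893), ahead of microglia markers (0.800). The highest over deviations was microglia markers (0.768, against 0.360 for oligodendrocyte markers). For C4b over regions, oligodendrocyte (0.716), hepatocyte (0.697), choroid plexus (0.685) and microglia markers (0.663) all stood above astrocyte markers (0.543). The hepatocyte and choroid plexus lists share Ttr, so their values are not separate. Over deviations astrocyte markers were highest for C4b (0.672), followed by microglia markers (0.584). Neuron markers ran against C4b (−0.882) and C1q (−0.726) over regions.

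**Figure D5:**
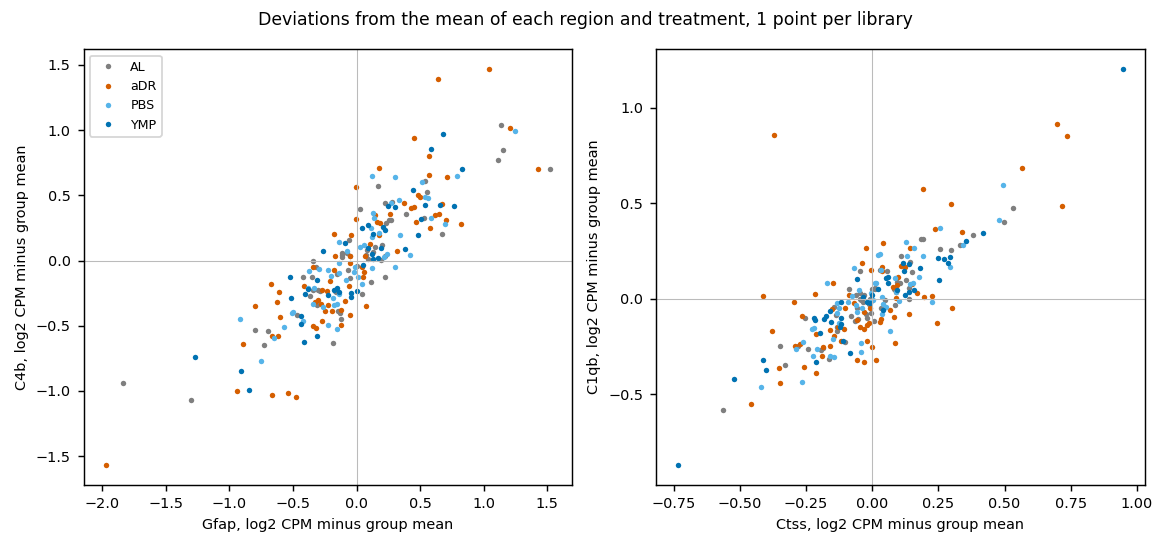
Deviation of each brain library from its region and group mean (log2) for C4b against Gfap and for C1qb against Ctss, with libraries coloured by treatment group. Libraries high in Gfap are high in C4b (r = 0.866), in the diet and plasma experiments alike.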

How the data were processed

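RNA from homogenised tissue was made into unstranded Smart-Seq2 cDNA libraries, per the labels' protocols. Reads were trimmed with Trim Galore 0.3.7 and aligned with STAR 2.5.3a to GRCm38, and DESeq2 was used, per the submitters' processing notes. The counting program and annotation are not given in the sources used here. The authors deposited raw counts per gene for all libraries. Of the gene rows, 537 held no count.

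Samples were grouped by the labels. Counts were tested with edgeR 4.0.16 (quasi-likelihood, TMM scaling, filterByExpr with a minimum count of 10 and total of 15) within each region and for region by treatment, and with limma 3.58.1 on 1 log2 value per mouse (prior count 2, mean trend) across regions, in R 4.3.3. Printed CPM use TMM factors over all libraries. Calls are Benjamini-Hochberg adjusted p under 0.05 over all genes tested. Permutation tests used numpy 2.4.6, and plots matplotlib 3.10.9. The scripts were tested on simulated data.

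The genes and lists were chosen with earlier results of these data known. Named were all 5 genes, their largest rise and fall in each experiment, called genes of the other complement lists or otherwise the farthest of each list, and the 5 most alike genes with at least 1 CPM in every region. Marker genes were added beside results they moved with, after their values were seen. Mouse numbers mark the same animal in several regions and never pair treatments. Deviations of libraries of 1 mouse correlated at a mean of 0.0872 (1534 pairs), and of different mice at −0.012. No same-group pair of libraries agreed within sampling noise (357 pairs, smallest chi-square per degree of freedom 1.29). Mice are separate animals, so p-values within a region and across regions refer to the spread between mice, while libraries of 1 region are few. The region by treatment tests and the permutation tests without a mouse block took libraries as units, although these share mice. Alternatives were other scaling, filters and prior counts, DESeq2 1.42.0, left-out mice, regions or libraries, and a mouse block.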

Additional observations from a re-analysis of the deposited data

Results flagged for a closer look

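Examined were 50 sets of 4 or 5 values: mouse values over the brain regions, liver libraries, and libraries of the regions named. In 7 sets the gap from the highest value to the next exceeded Dixon's 95% critical value. The 2.5 that chance gives holds for independent sets. Here regions were named for their largest differences and genes share libraries, so the 7 cannot be judged against it.

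In caudate putamen, aDR mouse 64 had 298 CPM of C1qb, with the other aDR mice at 130.8 to 155.5 CPM. The same library had 185 CPM of C1qc, with the others at 96.8 to 118 CPM.

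In thalamus, C3 stood apart in a mouse of each diet group. It was 8.63 CPM in aDR mouse 64, with the others at 0.688 to 1.65 CPM, and 13.2 CPM in AL mouse 68, with the others at 0.480 to 1.59 CPM.

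In motor cortex, aDR mouse 67 had 48.1 CPM of C4b, with the others at 12.6 to 18.0 CPM.

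In caudate putamen, PBS mouse 76 had 15.7 CPM of C3, with the other PBS mice at 0.879 to 1.22 CPM. The same library had 457 CPM of C4b, with the others at 168 to 192.5 CPM.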

How the results depend on the processing

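For the 5 genes, 394 recomputed values that answer a comparison kept their direction and side of the threshold, or their count, 9 turned sign and 6 counts moved. The 394 include the region by treatment tests, which have no direction and could change only their side of the threshold. The exceptions were these. The value of C1qc diet across brain regions became −0.0024 with plain library totals and ranged from −0.041 to 0.041 with a mouse left out. Under plasma, left-out mice gave −0.13 to 0.061 for C1qb and −0.11 to 0.049 for C1qc across regions. C3 in liver ranged from −0.062 (without DR mouse 67) to 0.35. Counts of members called within regions were 0 with edgeR, and DESeq2 gave 1 under diet (C1qa in olfactory bulb) and 1 under plasma (C4b in caudate putamen). Leaving out plasma mice gave 0 to 1, the call being C3 in olfactory bulb without YMP mouse 77 (2.61, adjusted p = 0.0135, edgeR). That call rested on the library of YMP mouse 81, at 3.51 CPM, since YMP mouse 73 had no C3 count there. With all mice C3 did not pass the filter in that region. Neighbouring regions that passed were 1 for C1qb with the mouse as a block against 0, 0 for C3 in control mice only against 2, and 0 for C4b in control mice only against 1. The cause of these changes was not tested, but fewer mice enter the control-only tests.

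Of the other values, left-out mice turned the sign of AL minus PBS for C1qa (−0.036 to 0.033), C1qb (−0.029 to 0.085) and C1qc (−0.043 to 0.051), and of diet minus plasma for C1qa (−0.065 to 0.11), C1qb (−0.11 to 0.0825) and C1qc (−0.034 to 0.13). They did so too for liver minus brain for C3 (−0.22 to 0.21) and for C3 in thalamus under diet (−1.28 to 1.34).

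The plasma difference of C4b across regions stayed between −0.41 and −0.24, with adjusted p-values of 0.205 to 0.896. With the mouse as a replicate block it was −0.32 (adjusted p = 0.205, limma). That fit, on single libraries with mouse as a correlated block, raised the genes called from 273 to 1669 under diet and from 0 to 302 under plasma, and called no member. Under diet, 144 genes were called without a mean trend, 165 without a filter, 148 without libraries high in plexus markers (both the trend and the plexus setting were chosen after seeing the data) and 52 to 311 with a mouse left out. Under plasma, left-out mice gave 0 to 2. In the test of region by treatment under plasma, 130 genes were called, 147 with the mouse block, 196 without choroid plexus, 10 without corpus callosum and 3 to 155 with a mouse left out. Left-out mice gave 11 to 147 genes for diet minus plasma (33 with all mice) and 0 to 31 for liver minus brain (8). Among the other genes called under diet, Cd93 kept its call under 10 of 20 alternatives, Csmd2 and Cx3cr1 under 7 each, Cldn5 under 15, Flt1 under 17 and Fcrls under 20, in 1 direction throughout. Depth limits C3 most, since it had too few counts to test in 5 regions under diet and 4 under plasma.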
